A study of Mus musculus with 6 samples.

Results

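A set of 10 genes that set the pace of the G1 phase of the cell cycle was measured by RNA sequencing of mouse muscle stem cells, in 6 libraries. The genes were taken by symbol from the deposited table, and 10 of its 14515 genes carry these symbols. Values are scaled counts, the reads of a gene divided by a depth factor of its library. All 10 passed the filter on low values, a scaled count of 10 or more in 2 libraries. They are the Cip/Kip inhibitors Cdkn1a, Cdkn1b and Cdkn1c, the INK4 inhibitors Cdkn2c and Cdkn2d, the D cyclins Ccnd1 and Ccnd3, and the retinoblastoma family Rb1, Rbl1 and Rbl2. There were 2 libraries of each labelled genotype, namely wild type (wt), mdx, and mdx/Ripk3mKO. The mdx mouse lacks full-length dystrophin and is used as a model of Duchenne muscular dystrophy, and the mdx/Ripk3mKO label adds a change of Ripk3, a kinase needed for necroptosis. The labels do not spell out mKO, nor do they give the Cre line, the age of the animals, or whether the libraries within a group are from different animals, so the spread behind each p-value may be technical. By the sample labels the cells were resting satellite cells sorted for RNA at once, with 10000 to 20000 cells for a library. By the series text they were activated wild-type cells kept for 72 hours under a transwell that held cells of the named genotype, in which case all 6 libraries come from wild-type cells. Groups are therefore named by their labels.

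D cyclins bind Cdk4 and Cdk6 and start the phosphorylation of the Rb family, which releases E2F transcription factors and opens the way into S phase. INK4 proteins block Cdk4 and Cdk6, and Cip/Kip proteins block the cyclin E and cyclin A kinases and bind cyclin D complexes as well. In skeletal muscle the inhibitors and Rb1 are known for holding differentiating myoblasts out of the cycle, where Cdkn1a and Cdkn1c act in part redundantly.

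Markers of dividing and of differentiating muscle cells were both detected. On the CPM scale, which takes scaled counts as a share of all those in the library, Mki67, a marker of dividing cells, lay at 660 to 820 and Myog, which drives terminal differentiation, at 1300 to 1698. Mki67 was highest in mdx, at 758 to 820 CPM, against 715 to 751 in wt and 660 to 726 in mdx/Ripk3mKO. Of 7 markers of cycling cells 2, Mki67 among them, were higher in mdx than in wt and 5 lower. In mdx/Ripk3mKO against mdx 3, again with Mki67, were lower and 4 higher. Over all tested genes 50.9% and 50.7% were lower in these comparisons. By limma 0 of the 7 had an adjusted p under 0.05 in either. Pax7, which defines satellite cells, lay at 84.6 to 103 CPM, and the 9 tested satellite and myogenic markers did not include Calcr, a marker of resting cells. Ripk3 itself was at 45 and 32 scaled counts in the wt libraries, 23 and 36 in those of mdx, and 17 and 33 in those of mdx/Ripk3mKO, so its level overlapped between the 3 labelled groups and checks no label. Dmd, which encodes dystrophin, was at 324 and 432 in the wt libraries, 531 and 692 in those of mdx, and 474 and 294 in those of mdx/Ripk3mKO. It was highest in mdx, and its wt and mdx/Ripk3mKO libraries overlapped. In these bulk samples fewer cells of a type and less RNA per cell cannot be told apart. Library 1 labelled mdx/Ripk3mKO stood apart in sex-linked transcripts. Xist was at 6918 scaled counts in it against 164 to 666 in the other libraries, and the Y-linked Ddx3y at 373 against 1543 to 1785. Values without this library are given where a result rests on it. Distance between libraries was also read as a mean chi-square per gene, the squared difference over its counting error. The mdx/Ripk3mKO libraries lay 9.29 apart, and library 2 of that group lay 2.84 from wt library 1. The wt libraries lay 3.86 apart. Library 2 of mdx lay 3.75 from wt library 2 and 4.38 from mdx library 1. By this measure the libraries did not group by label.

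The levels of the 10 genes were compared per length, as CPM per kilobase of summed exons, because longer transcripts collect more reads. Summed exons cover every annotated transcript of a gene, so the order of the genes depends on this length. Which transcripts were in use was not tested. Cdkn1a, the inhibitor induced by p53 and by MyoD, was highest in each of the 6 libraries, at 231 to 261 CPM per kb, and ranked 112 of 14066 tested genes with a known length. Ccnd1 followed at 54.8 to 64.4, then Rb1 at 36.4 to 43.6 and Ccnd3 at 30.3 to 36.6 CPM per kb, whose ranges touched. Cdkn2c, at 12.7 to 13.5, and Cdkn1b, at 11.5 to 12.9, overlapped in the same way. Cdkn2d at 7.25 to 9.21 and Rbl1 at 8.53 to 9.60 CPM per kb overlapped too. Cdkn1c, at 5.36 to 11.6, had the largest ratio of highest to lowest library and crossed those of Cdkn2d, Rbl1 and Cdkn1b. Rbl2 was lowest at 2.73 to 3.16 CPM per kb, and the median of tested genes was 4.66 CPM per kb. The medians of Cdkn1a and Rbl2 stood 82.9-fold apart.

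**Figure D1:**
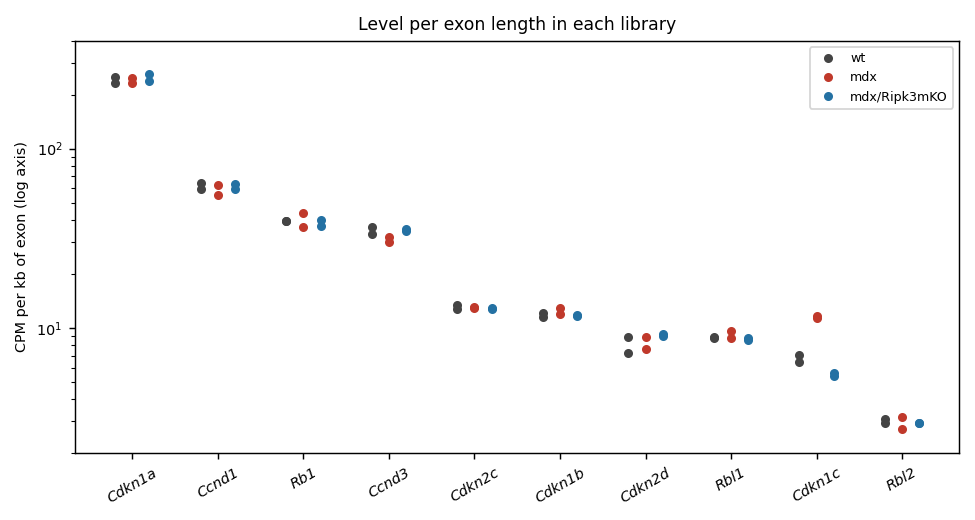
Level of each gene in CPM per kilobase of summed exon length (vertical log axis), ordered by median, with 1 point for each of the 2 libraries of each labelled group. Cdkn1a lies at 231 to 261 CPM per kb and Rbl2 at 2.73 to 3.16, and Cdkn1c is the gene whose mdx points, 11.3 and 11.6, stand clear of the others.

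Cdkn1c alone among the 10 genes passed a test between labelled groups, at a Benjamini-Hochberg adjusted p under 0.05 over all tested genes. In limma's F-test over the 3 genotypes Cdkn1c had the smallest p of all 14077 tested genes (adjusted p = 0.00099), where 0.0781% of genes passed and 7.87% had an unadjusted p under 0.05. The lowest F-test adjusted p among the other 9 genes was 0.53, for Ccnd3. Between the lowest and the highest library Cdkn1c varied 2.12-fold, and the other 9 genes varied 1.06-fold to 1.29-fold.

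**Figure D2:**
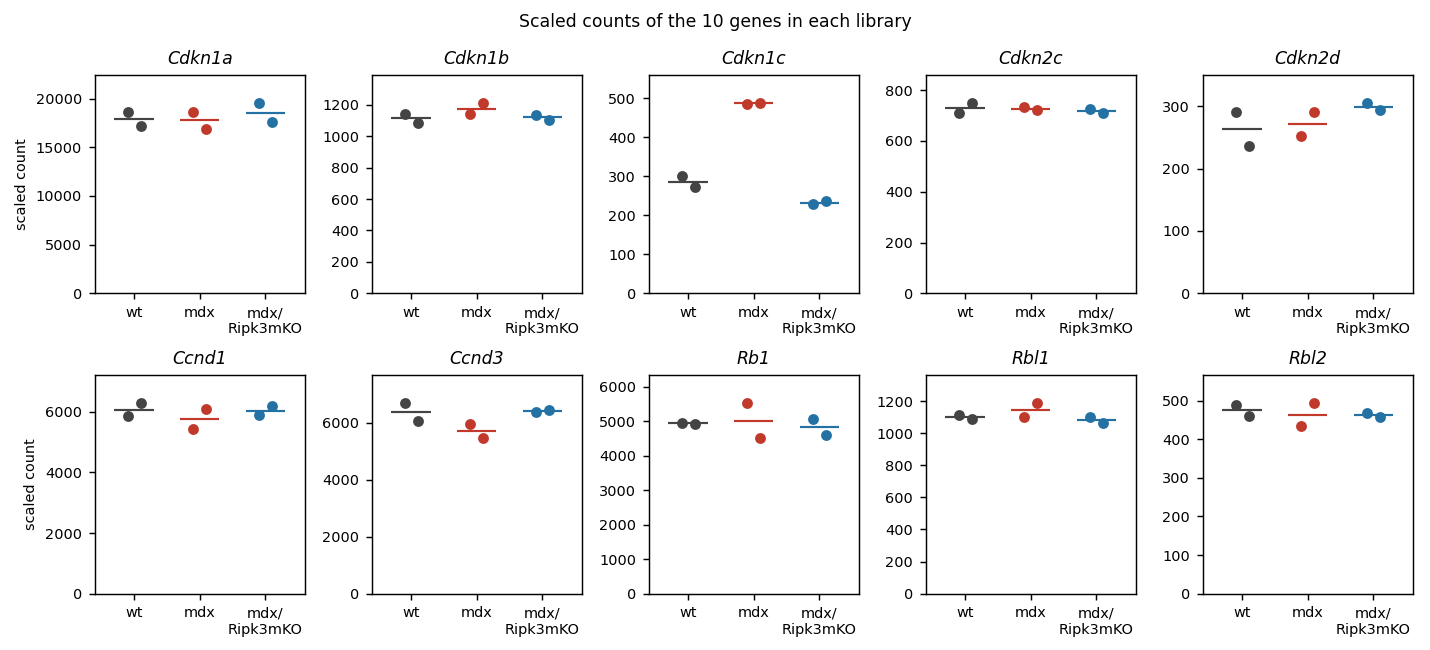
Scaled counts (vertical axes from 0) of the 10 genes, with 1 point for each library and a line at the mean of the 2 libraries of each labelled group. Cdkn1c lies at 486 and 488 in mdx, above 272 and 300 in wt and 230 and 236 in mdx/Ripk3mKO, and the other 9 genes vary at most 1.29-fold over the libraries.

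Cdkn1c encodes p57, the Cip/Kip inhibitor that is expressed mainly from the maternal allele. The gene (ENSMUSG00000037664) lies on mm10 chromosome 7, 143458339 to 143461050, minus strand. The wt libraries held 300 and 272 scaled counts of it, the mdx libraries 486 and 488, and the mdx/Ripk3mKO libraries 230 and 236. Both mdx libraries were above all others, both mdx/Ripk3mKO libraries were below all others, and no 2 groups overlapped. Counting error alone, from the estimated reads, was 4.63% to 6.50% of the value in a library.

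Cdkn1c rose 1.70-fold in mdx against wt, a difference of 0.77 ± 0.10 (moderated standard error, n = 2 and 2) on the log2(scaled count + 1) scale, with a 95% interval of 47.4% to 96.5% higher (limma, adjusted p = 0.0182). With all 6 libraries it was the single gene past the threshold in that comparison, 0.00710% of those tested, and 103 genes passed when only wt and mdx were fitted or when mdx/Ripk3mKO library 1 or library 2 was left out. It fell by 1.06 ± 0.10 on the same scale in mdx/Ripk3mKO against mdx, to 0.479 of the mdx level, with an interval of -58.5% to -44.6% (limma, adjusted p = 0.000326). In that comparison 0.206% of genes passed, 0.0852% higher and 0.121% lower. Both comparisons use the same mdx libraries, so they are not independent of each other. Between mdx/Ripk3mKO and wt the difference was -0.29 ± 0.10, with an interval of -29.3% to -5.76%, and did not pass (limma, unadjusted p = 0.0089, adjusted p = 1). No tested gene passed in that comparison, and 3.32% had an unadjusted p under 0.05.

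The call of Cdkn1c between mdx/Ripk3mKO and mdx held without any single library, with adjusted p of 0.000384 to 0.0107, and without the library that stood apart in sex-linked transcripts the difference was -1.04. The call between mdx and wt was lost without wt library 1 (adjusted p = 0.419), wt library 2 (0.735), mdx library 1 (0.189) or mdx library 2 (0.396), with differences of 0.70 to 0.84. Both calls were lost in limma without a variance trend and robust fitting (adjusted p = 0.429 and 0.295). Cdkn1c has a GC content of 59.4% in its longest transcript, where the median of tested genes is 49.5%, and the 1929 genes within 3 points of it had a median difference of -0.04 in mdx against wt and 0.08 in mdx/Ripk3mKO against mdx, opposite in sign to Cdkn1c. Corrected for GC content and exon length, the differences of Cdkn1c were 0.78 and -1.12. An antisense gene, Gm44732, overlaps Cdkn1c on the opposite strand, and since the sources used here do not say whether strand was used in counting, its reads cannot be told from those of Cdkn1c. The same holds for Bysl beside Ccnd3, LTO1 beside Ccnd1, Lpar6 and Rcbtb2 beside Rb1, and Aktip beside Rbl2, which overlap these genes on the opposite strand.

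Markers of other cells were read for the same libraries. Of 11 leukocyte markers 3 were tested, and their summed level was 2.17 to 2.76 CPM in wt, 1.86 to 2.04 in mdx and 1.90 to 2.65 in mdx/Ripk3mKO. Endothelial markers, with 4 of 7 tested, summed to 4.19 to 4.30 CPM in wt, 4.08 to 5.0 in mdx and 3.52 to 3.61 in mdx/Ripk3mKO, lowest in the last. Schwann cell markers, with 2 of 5 tested, summed to 4.53 to 5.8503 CPM in wt, 5.8513 to 6.70 in mdx and 5.16 to 5.70 in mdx/Ripk3mKO. Their mdx sums were highest, by a narrow margin over wt. By limma 0 of the tested endothelial and Schwann cell markers passed in any comparison. Fibroblast and fibro-adipogenic markers summed to 182 to 252 CPM with 4 of 8 tested, most of it Gsn, at 178 to 235 CPM. Pdgfra lay at 1.16 to 1.55 CPM and Ly6a at 1.11 to 1.94, and Dcn, Lum and Dpt were not tested. The collagen gene Col1a1, of the same list, was at 40 and 41 scaled counts in the wt libraries, 87 and 96 in those of mdx, and 286 and 21 in those of mdx/Ripk3mKO. Both mdx libraries were above both of wt, as for Cdkn1c, and its mdx/Ripk3mKO libraries lay on either side of all others. It did not pass in mdx against wt with all 6 libraries (limma, adjusted p = 0.941) and passed without mdx/Ripk3mKO library 1 or without library 2. Of 7 pericyte and smooth muscle markers 5 were tested, and Kcnj8 and Myh11 were not. Their sums were 2017 to 2509 CPM in wt, 1876 to 2605 in mdx and 2280 to 2439 in mdx/Ripk3mKO, most of it Acta2, so the groups overlapped. Pdgfrb, which marks pericytes, lay highest in mdx, as Cdkn1c did, at 333 and 309 scaled counts in the wt libraries, 409 and 444 in those of mdx, and 330 and 248 in those of mdx/Ripk3mKO (limma, adjusted p = 0.556 in mdx against wt and 0.0836 in mdx/Ripk3mKO against mdx). Cspg4, of the same list, lay lowest in mdx, and rose by 0.44 ± 0.07 in mdx/Ripk3mKO against mdx (limma, adjusted p = 0.0289). The call of Cspg4 was lost without either wt library, mdx library 2 or mdx/Ripk3mKO library 2 (adjusted p of 0.0814 to 0.226). Without mdx/Ripk3mKO library 1, 3 of the 5 passed in that comparison, Abcc9, Cspg4 and Pdgfrb, where 1.99% of all genes did. In mdx against wt Abcc9 and Cspg4 passed without mdx/Ripk3mKO library 1 or library 2, where 0.737% and 0.735% of all genes did. Abcc9 was at 697 and 818 scaled counts in the wt libraries, 1008 and 1030 in those of mdx, and 928 and 614 in those of mdx/Ripk3mKO, also highest in mdx. Rgs5 was at 11 and 18 in the wt libraries, 22 and 27 in those of mdx, and 20 and 17 in those of mdx/Ripk3mKO, highest in mdx too, and did not pass (limma, adjusted p = 0.773 and 0.723 in the comparisons with mdx). The part of such cells in the Cdkn1c result was not tested.

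Cdkn1c was a small part of the Cip/Kip transcripts. Of the summed level per kb of Cdkn1a, Cdkn1b and Cdkn1c it made up 2.61% and 2.56% in the wt libraries, 4.16% and 4.54% in those of mdx, and 1.93% and 2.18% in those of mdx/Ripk3mKO. Cdkn1a made up 90.4% to 93.8% in the same libraries. There were 62.0 and 63.2 scaled counts of Cdkn1a for each one of Cdkn1c in the wt libraries, 38.3 and 34.7 in those of mdx, and 84.9 and 74.6 in those of mdx/Ripk3mKO.

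The other Cip/Kip inhibitors did not separate the groups. Cdkn1a (ENSMUSG00000023067, chromosome 17, 29090979 to 29100722) was at 18611 and 17181 scaled counts in the wt libraries, 18625 and 16916 in those of mdx, and 19534 and 17595 in those of mdx/Ripk3mKO. The 2 libraries within each group lay further apart than the group means. Its differences were -0.01 ± 0.06 in mdx against wt, with an interval of -9.86% to 9.31%, and 0.06 ± 0.06 in mdx/Ripk3mKO against mdx, with an interval of -5.15% to 15.0% (limma, adjusted p = 0.992 and 0.763). Cdkn1b, which encodes p27, the inhibitor removed by the Skp2 ubiquitin ligase, is at chromosome 6, 134920401 to 134925513. It held 1143 and 1081 scaled counts in the wt libraries, 1138 and 1210 in those of mdx, and 1134 and 1103 in those of mdx/Ripk3mKO. The lowest mdx library was 4 counts above the highest mdx/Ripk3mKO library, and the difference was -0.07 ± 0.07 (limma, adjusted p = 0.736).

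The INK4 inhibitors bind Cdk4 and Cdk6 directly. Cdkn2c, which encodes p18, is at chromosome 4, 109660876 to 109667189. It was the steadiest of the 10 genes, at 708 and 749 scaled counts in the wt libraries, 732 and 723 in those of mdx, and 726 and 710 in those of mdx/Ripk3mKO. Its differences were -0.0014 ± 0.07, -0.02 ± 0.07 and -0.02 ± 0.07 in mdx against wt, mdx/Ripk3mKO against mdx and mdx/Ripk3mKO against wt, and the interval of the first was -10.0% to 10.9% (limma). Cdkn2d, which encodes p19, is at chromosome 9, 21288410 to 21291308. It held 291 and 236 scaled counts in the wt libraries, 253 and 290 in those of mdx, and 305 and 294 in those of mdx/Ripk3mKO. Both mdx/Ripk3mKO libraries were above the other 4, and the wt and mdx libraries overlapped. The difference from wt, 0.19 ± 0.12 with an interval of -4.38% to 36.4%, did not pass (limma, unadjusted p = 0.131).

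**Figure D3:**
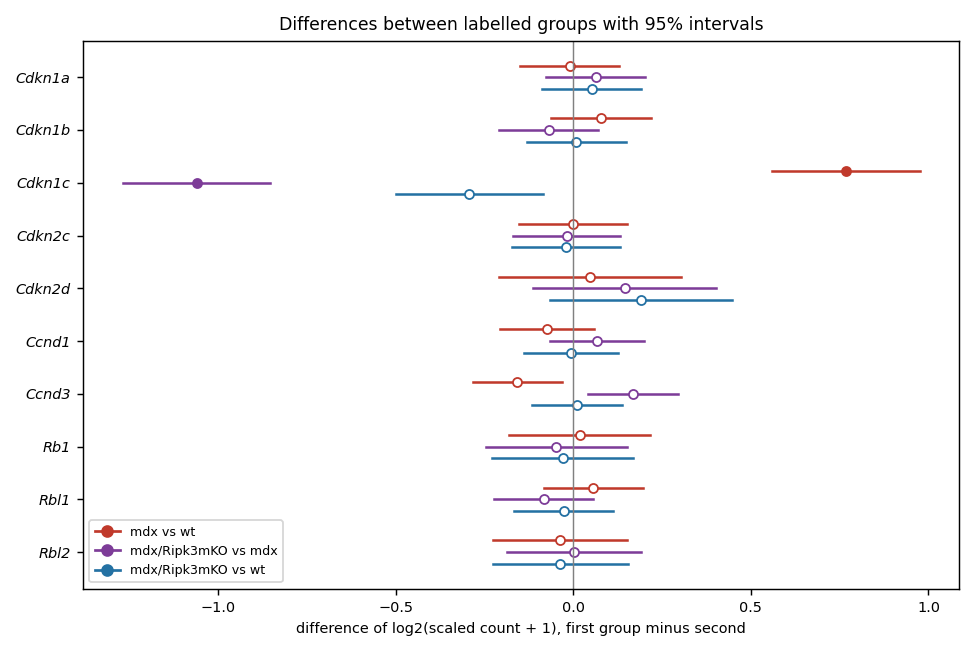
Difference of log2(scaled count + 1) between labelled groups (horizontal axis) for each gene, with 95% intervals from limma and filled points where the adjusted p was under 0.05. The 2 filled points are those of Cdkn1c, at 0.77 in mdx against wt and -1.06 in mdx/Ripk3mKO against mdx, and Ccnd3 has intervals clear of 0 in the same comparisons with all 6 libraries, without passing.

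Of the D cyclins, Ccnd3 came nearest to a difference. Ccnd3, the D cyclin that stays high in differentiating myoblasts, is at chromosome 17, 47505051 to 47599691. It held 6674 and 6070 scaled counts in the wt libraries, 5947 and 5472 in those of mdx, and 6376 and 6445 in those of mdx/Ripk3mKO. Both mdx libraries were below the other 4, where those of Cdkn1c were above, and the wt and mdx/Ripk3mKO libraries of Ccnd3 overlapped. The difference was -0.16 ± 0.06 in mdx against wt, with an interval of -17.8% to -2.22%, and 0.17 ± 0.06 in mdx/Ripk3mKO against mdx, with an interval of 3.0% to 22.6%. Neither passed (limma, unadjusted p = 0.0173 and 0.0122, adjusted p = 0.651 and 0.289), where 6.46% and 11.6% of all tested genes had an unadjusted p under 0.05. In mdx against wt the difference was -0.09 without wt library 1 (limma, unadjusted p = 0.218) and -0.10 without mdx library 2 (0.195), and in mdx/Ripk3mKO against mdx it was 0.11 without mdx library 2 (0.155). Ccnd1, the D cyclin induced by growth factors, is at chromosome 7, 144929931 to 144939869. It was at 5846 and 6273 scaled counts in the wt libraries, 5422 and 6093 in those of mdx, and 5878 and 6174 in those of mdx/Ripk3mKO, so all 3 groups overlapped. Its differences were -0.08 ± 0.06 and 0.07 ± 0.06 in the same 2 comparisons (limma, adjusted p = 0.872 and 0.724). Ccnd1 made up 62.0% to 67.5% of the summed level per kb of both D cyclins, and these shares overlapped between the groups. The share rests on summed exon lengths of 4.709 kb for Ccnd1 and 8.775 kb for Ccnd3. In scaled counts the D cyclins were near each other, with a Ccnd3 to Ccnd1 ratio of 0.898 to 1.14 over the libraries.

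The Rb family showed no difference past the threshold. Rb1, whose protein holds E2F factors inactive until it is phosphorylated, is at chromosome 14, 73195502 to 73325822. It held 4947 and 4915 scaled counts in the wt libraries, 5513 and 4519 in those of mdx, and 5067 and 4602 in those of mdx/Ripk3mKO. The mdx libraries enclosed all the others, and the difference from wt was 0.02 ± 0.09, with an interval of -11.8% to 16.2% (limma, adjusted p = 0.989). Rb1 made up 74.1% to 79.1% of the summed level per kb of the family, Rbl1 15.9% to 19.5% and Rbl2 4.96% to 6.43%. Rbl2, whose protein p130 is the family member typical of resting cells, is at chromosome 8, 91070057 to 91123844. It was at 489 and 461 scaled counts in the wt libraries, 434 and 493 in those of mdx, and 467 and 459 in those of mdx/Ripk3mKO, and mdx/Ripk3mKO against mdx gave 0.0013 ± 0.09 (limma, adjusted p = 0.999).

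Rbl1 encodes p107, the family member that rises in cycling cells and whose own promoter is a known E2F target. It is at chromosome 2, 157145893 to 157204512. Its promoter is shown because it was the only one among those matched that held an E2F motif. RefSeq promoter windows of GRCm38.p6 (250 bases before to 50 after a start) were matched for 7 of the 10 genes, all but Cdkn1c, Ccnd1 and Rb1. They were searched on both strands for TTTGGCGC, TTTGCCGC, TTTCGCGC and TTTCCCGC, the forms of the E2F motif. One of the 10 windows of these 7 genes had a match, and 2.26% of all 32851 windows did. The match begins 18 bases before the RefSeq start of Rbl1 at 157204534, which lies upstream of the GENCODE end given above. The 58 bases around it, at chr2:157204535-157204592 on the minus strand, are shown with the motif in capitals:
Rbl1: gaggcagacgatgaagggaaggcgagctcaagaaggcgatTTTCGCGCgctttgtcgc
A match is a description of these letters and not of binding. Rbl1 held 1111 and 1090 scaled counts in the wt libraries, 1103 and 1186 in those of mdx, and 1099 and 1061 in those of mdx/Ripk3mKO. Its lowest mdx library was 4 counts above its highest mdx/Ripk3mKO library, and the difference was -0.08 ± 0.07 (limma, adjusted p = 0.679). Over the 6 libraries the profile of Rbl1 was closest to that of Cdkn1b among all pairs of the 10 genes, with a root mean square difference of 0.022 on the log2 scale.

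Groups without overlap were common over all genes, so their number among the 10 genes is given as a description. In mdx against wt 2 of 10 genes did not overlap, Cdkn1c higher and Ccnd3 lower, where 35.9% of all genes did not, 17.6% higher and 18.3% lower. In mdx/Ripk3mKO against mdx 5 of 10 did not overlap, Cdkn2d and Ccnd3 higher and Cdkn1b, Cdkn1c and Rbl1 lower, against 41.3% of all genes, 21.0% higher and 20.3% lower. In mdx/Ripk3mKO against wt 2 of 10 did not overlap, Cdkn2d higher and Cdkn1c lower, against 29.4% of all genes, 14.4% higher and 15.1% lower. The median difference of the 10 genes was 0.01, -0.01 and -0.01 in these comparisons, and that of all tested genes was -0.0022, -0.0021 and 0.0012. For the 9 genes other than Cdkn1c, the 95% intervals of all 3 comparisons lay between -17.8% and 36.4%. The summed scaled count of these 9 genes ranged from 36902 to 40586, a 1.10-fold range over the libraries.

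The genes around these 10 gave few calls. Of 14 other G1 cyclins, kinases and inhibitors none passed in mdx against wt (0 at an unadjusted p under 0.05 by limma) or in mdx/Ripk3mKO against mdx (1 at an unadjusted p under 0.05). That gene was Cdk4, the main partner of the D cyclins, at 8789 and 8221 scaled counts in the wt libraries, 7957 and 8035 in those of mdx, and 9651 and 9008 in those of mdx/Ripk3mKO. Both mdx libraries were lowest and both mdx/Ripk3mKO libraries highest, and the difference between them was 0.22 ± 0.05 (limma, adjusted p = 0.113). Cdkn2a and Cdkn2b, the other INK4 genes, were detected at 238 to 282 and 118 to 149 scaled counts, with 0.08 ± 0.10 and 0.11 ± 0.14 in mdx against wt. The third D cyclin gene, Ccnd2, named after its values were seen, ranged from 812 to 1084 scaled counts and its wt and mdx libraries overlapped.

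E2F factors, MuvB subunits and S phase genes gave no call. Of 18 E2F and MuvB genes 15 were lower in mdx than in wt, with a median of -0.06, and 12 were higher in mdx/Ripk3mKO than in mdx, with a median of 0.05. Over all tested genes 50.9% were lower in the first comparison and 49.2% higher in the second. By limma 0 of 18 passed in either comparison, and 1 and 3 had an unadjusted p under 0.05, near the shares of all genes, 6.46% and 11.6%. The activator E2f2 was at -0.18 ± 0.07 and its partner Tfdp1 at -0.12 ± 0.06 in mdx against wt, and the Rb family partner E2f4 was at 0.18 ± 0.07 in mdx/Ripk3mKO against mdx. Of 22 E2F target genes of S phase 18 were lower in mdx than in wt and 19 higher in mdx/Ripk3mKO than in mdx, with medians of -0.04 and 0.04. Again 0 passed by limma, and 1 and 2 had an unadjusted p under 0.05. Rrm2, a subunit of ribonucleotide reductase, was at -0.11 ± 0.05 and 0.16 ± 0.05 in these comparisons, and the licensing factor Cdt1 at -0.10 ± 0.06 and 0.18 ± 0.06. Of 16 genes for the turnover of inhibitors and D cyclins 0 passed by limma and 0 had an unadjusted p under 0.05 in either comparison. Skp2, the subunit that targets p27, was at -0.10 ± 0.07 in mdx against wt, and its cofactor Cks1b at 0.13 ± 0.06 in mdx/Ripk3mKO against mdx. In mdx/Ripk3mKO against wt none of these 4 lists had a gene past the threshold by limma, and 1 gene, Cdk4, had an unadjusted p under 0.05.

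None of the imprinted neighbours of Cdkn1c passed with all 6 libraries. Of 19 listed genes of distal chromosome 7, 12 were tested, and by limma 0 passed in any comparison, with 0, 2 and 0 at an unadjusted p under 0.05. Kcnq1ot1, the noncoding RNA of the paternal allele that silences Cdkn1c in cis, was at 472 and 533 scaled counts in the wt libraries, 555 and 597 in those of mdx, and 339 and 561 in those of mdx/Ripk3mKO. Its mdx/Ripk3mKO libraries were far apart, and the difference from mdx was -0.40 ± 0.27 (limma, adjusted p = 0.664). It passed in that comparison when mdx/Ripk3mKO library 2 was left out, a fit in which library 1, at 339, stood alone for its group. That library is the one that stood apart in sex-linked transcripts. The 2 genes with an unadjusted p under 0.05 were Tnfrsf22, a decoy receptor, at 0.27 ± 0.11, and the tetraspanin Cd81 at 0.13 ± 0.06, both higher in mdx/Ripk3mKO than in mdx. Igf2, the imprinted growth factor, and the noncoding H19 were at 0.10 ± 0.08 and 0.05 ± 0.08 in mdx against wt.

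Of 17 transcription factors linked to these genes 1 passed in mdx/Ripk3mKO against mdx, where 0.206% of all tested genes did. In mdx against wt and in mdx/Ripk3mKO against wt 0 passed. Heyl, a repressor induced by Notch, fell by 0.77 ± 0.09 in mdx/Ripk3mKO against mdx (limma, adjusted p = 0.0162), and was at 0.47 ± 0.09 in mdx against wt (adjusted p = 0.316). Myod1 went the other way, at -0.22 ± 0.05 and 0.28 ± 0.05, and did not pass (limma, adjusted p = 0.418 and 0.0528). Hey1, of the same list, also went against Heyl, at -0.20 ± 0.12 and 0.30 ± 0.12, and did not pass (limma, adjusted p = 0.815 and 0.351). Hes1, named after its values were seen, was at -0.04 ± 0.09 in both comparisons. Trp53 was at -0.11 ± 0.06 and 0.15 ± 0.06. Mef2c, named after its values were seen, was at 0.56 ± 0.33 and -0.68 ± 0.33, with mdx/Ripk3mKO libraries at 6410 and 3660 scaled counts. The call of Heyl between mdx/Ripk3mKO and mdx was lost without wt library 1 (adjusted p = 0.129), wt library 2 (0.134) or mdx library 2 (0.0843). Without mdx/Ripk3mKO library 1, which stood apart in sex-linked transcripts, 3 of the 17 passed in that comparison, Heyl, Mef2c and Myod1, where 1.99% of all genes did. In mdx against wt 2 of the 17, Heyl and Mef2c, passed without mdx/Ripk3mKO library 1 or library 2, where 0.737% and 0.735% of all genes did.

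**Figure D4:**
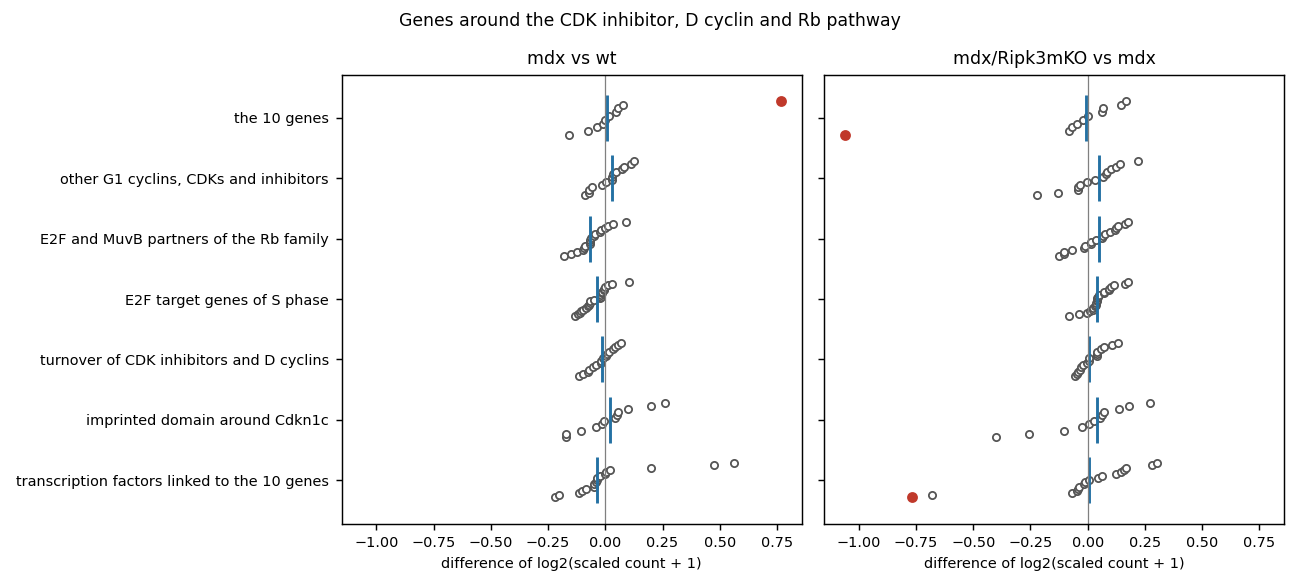
Difference of log2(scaled count + 1) for the tested genes of each list (horizontal axes) in mdx against wt and in mdx/Ripk3mKO against mdx, with a bar at each list's median and filled points where the adjusted p was under 0.05. Filled are Cdkn1c, at 0.77 and -1.06, and Heyl, at -0.77 in the second comparison, and most other genes lie close to 0.

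Of the 5 genes most like Cdkn1c in profile 4 are described, and none of these 4 was on the cell cycle lists. Likeness was the root mean square difference between log2(scaled count + 1) profiles over the 6 libraries, each centred on its own mean, among 10005 tested genes whose mean was no lower than 100 scaled counts. They were the antisense RNA D830024N08Rik at 0.168, Heyl at 0.174, Islr at 0.189 and the procollagen peptidase Adamts2 at 0.199, against a median of 0.457 over all candidates. All 4 were high in both mdx libraries and lower in the other 4, which follows from how they were picked. By limma none of the 4 passed in mdx against wt (adjusted p = 0.316 to 0.661). Heyl and Adamts2 passed in mdx/Ripk3mKO against mdx (limma, adjusted p = 0.0162 and 0.0393), and D830024N08Rik and Islr did not (0.0702 and 0.0552). The call of Adamts2, like that of Heyl, was lost without mdx library 2. Islr was at 505 and 478 scaled counts in the wt libraries, 709 and 840 in those of mdx, and 522 and 401 in those of mdx/Ripk3mKO. Adamts2 was at 126 and 128 in the wt libraries, 167 and 176 in those of mdx, and 105 and 78 in those of mdx/Ripk3mKO. In all 4 genes, as in Cdkn1c and as the choice by profile implies, mdx/Ripk3mKO lay below mdx. Unlike Cdkn1c they were lower in library 2 labelled mdx/Ripk3mKO than in library 1.

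**Figure D5:**
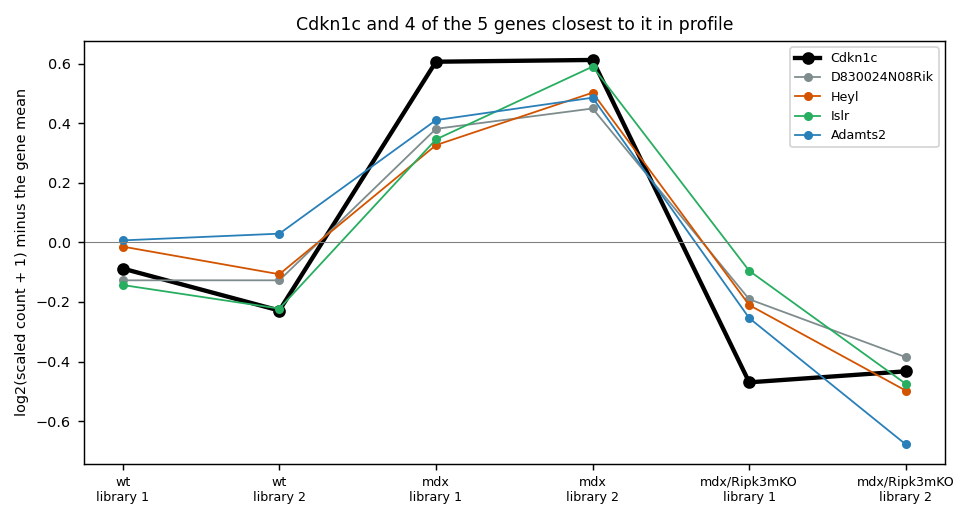
Profiles over the 6 libraries (horizontal axis) of Cdkn1c and 4 of the 5 genes closest to it, as log2(scaled count + 1) minus the gene's mean (vertical axis). The lines join values of one gene and mark no order of libraries. All 5 profiles peak in both mdx libraries, which for the 4 genes follows from the choice by profile. The root mean square differences from Cdkn1c are 0.168 to 0.199.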

How the data were processed

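RNA from 6 libraries was read with a stranded total RNA kit, per the labels' protocols. The authors deposited 1 table of counts divided by size factors and rounded to whole numbers, treated here as a score and called the scaled count. Per the submitters' processing notes, the tools were Trimmomatic (0.36), featureCounts (1.6.3), STAR (2.6.1d) and DESeq2 (1.18.1), with the mm10 build. Library totals were 20611974 to 21037153 scaled counts. The divisors recovered from the values were 0.871 to 0.955 in wt and mdx and 1.20 to 1.21 in mdx/Ripk3mKO, whose libraries were thus the deepest. Both mdx columns carry one heading, so their library numbers only name them.

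Differences were tested in limma 3.58.1 (R 4.3.3) on log2(scaled count + 1), with all 6 libraries, genotype as the only term, a variance trend and robust fitting. A gene needed a scaled count of 10 or more in 2 libraries, which 14077 of 14515 met, with Benjamini-Hochberg adjustment over all of them and a threshold of 0.05. The 3 residual degrees of freedom are few, so the moderated errors lean on other genes. The fit was tested on simulated data. Gene lengths and GC content came from GENCODE M21. Named genes of each list were taken from the 4 with the smallest p in each comparison. The 10 genes and the lists were chosen with earlier results of these data known. Alternatives changed the pseudocount, filter, scaling, GC correction, variance model, groups in the fit and libraries left out. One of the 5 genes closest to Cdkn1c in profile is not reported here.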

Additional observations from a re-analysis of the deposited data

How the results depend on the processing

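Without a variance trend and robust fitting, 0 of the 10 genes passed in mdx against wt, in mdx/Ripk3mKO against mdx and in limma's F-test, in each of which Cdkn1c passed otherwise. Leaving out 1 library gave 0 to 1 of the 10 genes in mdx against wt, 1 to 1 in mdx/Ripk3mKO against mdx and in the F-test, and 0 to 0 in mdx/Ripk3mKO against wt. Over all genes, 1, 29 and 0 passed in these comparisons. These counts ranged over 0 to 103, 1 to 278 and 0 to 20 with 1 library left out, where 278 came without mdx/Ripk3mKO library 1 and 20 without mdx/Ripk3mKO library 2. With only the groups compared in the fit they were 103 and 2 in the comparisons with mdx. In mdx/Ripk3mKO against mdx a filter of 50 gave 18, the correction for GC content and exon length 16, and no trend or robust fitting 1. The cause of these shifts was not tested. Where 1 library of a group is left, it is assumed to vary like the other groups.

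Over 15 alternatives Cdkn1c lay at 0.70 to 0.84 in mdx against wt and passed in 10, and at -1.12 to -1.04 in mdx/Ripk3mKO against mdx and passed in 14. Over 16 alternatives it lay at -0.36 to -0.22 in mdx/Ripk3mKO against wt and passed in 0.

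No other gene of the 10 passed under any alternative, and the signs of small differences turned. In the order mdx against wt, mdx/Ripk3mKO against mdx and mdx/Ripk3mKO against wt, leaving out 1 library gave -0.080 to 0.059, -0.013 to 0.14 and -0.023 to 0.13 for Cdkn1a, -0.16 to 0.0088, -0.016 to 0.15 and -0.058 to 0.043 for Ccnd1, -0.13 to 0.16, -0.19 to 0.096 and -0.10 to 0.039 for Rb1, and -0.13 to 0.054, -0.090 to 0.093 and -0.079 to 0.0062 for Rbl2. It gave -0.042 to 0.039 and -0.061 to 0.020 for Cdkn2c in mdx and in mdx/Ripk3mKO against wt, -0.10 to 0.20 for Cdkn2d in mdx against wt, and -0.031 to 0.049 for Cdkn1b and -0.058 to 0.079 for Ccnd3 in mdx/Ripk3mKO against wt. With the GC and length correction Cdkn2c was 0.016 and Rb1 -0.021 in mdx against wt, Cdkn1b 0.0069 and Rb1 0.033 in mdx/Ripk3mKO against mdx, and Rb1 0.011 and Rbl1 0.0096 in mdx/Ripk3mKO against wt. With scaling to the library total Rbl2 was -0.0041 in mdx/Ripk3mKO against mdx, and Cdkn1b -0.0029 and Ccnd3 -0.0015 in mdx/Ripk3mKO against wt.

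The wt and mdx/Ripk3mKO columns share library numbers, but the labels tie them to no batch, and deviations of same-numbered libraries correlated at -0.0115 across genes. With the replicate block, 0 of the 10 genes and 0 genes in all passed between them, and Cdkn1c was at -0.29. No paired analysis was possible for the comparisons with mdx because the mdx columns carry no separate numbers.

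Counting error limits the genes with few reads, Cdkn1c, Cdkn2d and Rbl2, more than the others.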
